A study of Mus musculus with 8 samples.

Results

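The genes described here encode 7 proteins that move ions or water, or that open such channels, in T cells. They are the potassium channel genes Kcna3, Kcnn4 and Kcnj11, the calcium entry genes Orai1, Stim1 and Stim2, and the water and glycerol channel gene Aqp3. They were taken by symbol from 18193 genes that had a probe set of their own on the array, and 15 probe sets, 1 to 4 per gene, carried these symbols. They were chosen by measured values, namely their TGF-b ratios and their levels by genotype on these arrays, so both are given as descriptions and no p is printed for them.

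The samples were mouse CD4 T cells, labelled C57BL/6J, sorted from spleen as naive cells (CD25-, CD44lo, CD62Lhi) and cultured for 24 h. Cells of 4 genotypes were each cultured with TGF-b at 2 ng/ml and without it, 1 Affymetrix array per combination and 8 in all. The genotypes were Smad2del/del with Smad3+/- (Smad2KO_Smad3het), Smad2del/del (Smad2KO), Smad3-/- (Smad3KO) and wild type (WT). Smad2 was deleted in T cells only, whereas the Smad3 knockout is not described as limited to a cell type, and no source used here names the Cre line. Every culture, the controls included, held plate-bound anti-CD3e and soluble anti-CD28 at 1 ug/ml, IL-2 at 10 ng/ml, and anti-IFN-g and anti-IL-4 at 10 ug/ml. All values are therefore from activated cells in which IFN-g and IL-4 were neutralised. The labels do not say that cultures came from separate animals. Smad2KO_Smad3het cells were used in place of cells without both Smads, and these heterozygous cells keep 1 copy of Smad3.

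T cell receptor signals empty the calcium store of the endoplasmic reticulum. STIM1 and STIM2 sense that loss in the store membrane and open ORAI1, the pore of the store-operated calcium channel in the plasma membrane. Calcium then activates calcineurin, which sends NFAT transcription factors to the nucleus. Potassium leaving through KCNA3 (a voltage-gated channel) and KCNN4 (a calcium-activated channel) keeps the membrane negative and so sustains calcium entry. KCNJ11 is the pore of the ATP-sensitive potassium channel, best known in pancreatic beta cells. AQP3 passes water, glycerol and hydrogen peroxide. TGF-b receptors act through SMAD2 and SMAD3, and the comparisons address how TGF-b and the loss of either Smad bear on the RNA of these channels.

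The promoters of Aqp3 and Kcna3 are shown because these genes had the highest and the lowest TGF-b ratios among the 7. Each run holds 250 bases before and 50 after the RefSeq start (build GRCm38.p6), on the gene's strand, for Aqp3 at chr4:41098134-41098433 (minus strand) and for Kcna3 at chr3:107035912-107036211 (plus strand). Capitals mark the core of the Smad-binding element, CAGAC or its reverse GTCTG.
Aqp3: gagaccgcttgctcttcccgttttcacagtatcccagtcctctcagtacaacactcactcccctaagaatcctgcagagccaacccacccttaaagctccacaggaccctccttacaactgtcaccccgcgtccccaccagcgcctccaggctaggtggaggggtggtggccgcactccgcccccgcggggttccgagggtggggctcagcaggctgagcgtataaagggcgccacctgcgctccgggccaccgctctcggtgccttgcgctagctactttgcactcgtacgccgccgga
Kcna3: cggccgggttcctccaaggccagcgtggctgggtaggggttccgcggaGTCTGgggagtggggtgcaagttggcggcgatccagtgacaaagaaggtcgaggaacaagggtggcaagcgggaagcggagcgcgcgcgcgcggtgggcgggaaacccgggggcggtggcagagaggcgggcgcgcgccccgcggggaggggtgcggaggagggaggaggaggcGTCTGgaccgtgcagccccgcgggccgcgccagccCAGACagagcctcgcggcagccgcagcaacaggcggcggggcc
The Kcna3 window held 3 matches and the Aqp3 window 0, and 49.6% of 32851 promoters of this length held at least 1. Promoters of 6 of the 7 genes were matched, and among the others Kcnn4 had 2 matches, Stim2 had 1, and Orai1 and Stim1 had 0. The NFAT core GGAAA or its reverse TTTCC had 1 match among the 6, in Kcna3, against 61.3% of all promoters, whereas the AP-1 element TGANTCA had 0, against 7.81%. Both strands were searched, and in Kcna3 the NFAT match overlapped no Smad match. A match describes letters and is not shown to be a site.

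Signals are deposited probe set intensities brought here to a common mean per array, trimmed by 2% at each end. A floor at the median scaled signal, 32.5, was set before log2 was taken, and a probe set was read where its highest signal on the WT, Smad2KO and Smad3KO arrays reached 65.0, which is 2 times the floor. Of the 15 probe sets 12 reached this mark and all 7 genes had at least 1, so each gene is read from its brightest probe set. The 3 dim ones, for Kcnj11, Aqp3 and Stim2, stayed between 0.884 and 40.1 on these 6 arrays. The Smad2KO_Smad3het arrays stood apart: their scaled medians were 107 with and 103 without TGF-b, against 30.7 to 35.7 on the other 6. Their rank correlations with the other arrays were 0.660 to 0.693, against 0.907 to 0.928 among the other 6. They are given as values only and entered no test except as an alternative. With 1 array per combination, no value has a replicate check and precision is set by how few arrays there are.

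The targeted genes did not check the labels. The brightest Smad2 probe set read 1046 with and 1155 without TGF-b in Smad2KO, against 1031 and 1068 in WT, and the brightest Smad3 probe set 730 and 614 in Smad3KO, against 549 and 149 in WT. Of 2 dimmer Smad3 probe sets, one read 198 and 286 in Smad3KO, against 167 and 75.4 in WT, and the other 48.7 and 43.2 in Smad3KO, against 103 and 25.05 in WT. No source used here says which of these probes fall inside the deleted part, and a probe outside it checks nothing. CD4 T cell markers were at the filter for 6 of 6 named genes, with summed signals of 23795 to 25508 with and 25166 to 25306 without TGF-b on the 6 arrays. At the filter were 0 of 6 B cell, 0 of 3 NK cell, 2 of 8 myeloid, 2 of 2 CD8, 1 of 5 erythroid and 1 of 4 platelet markers. Summed myeloid signals were 172 to 221 with and 218 to 304 without TGF-b, summed CD8 signals 68.2 to 132 with and 83.5 to 161 without, and summed erythroid signals 58.5 to 115 with and 104 to 138 without, each lower with TGF-b in each of the 3 genotypes. Summed B cell signals, 97.3 to 114 with and 78.7 to 96.8 without, were higher with TGF-b in each. CD4 T cell, NK cell and platelet sums had no common direction. Cd8a read 13.3 to 46.3 with and 45.1 to 94.0 without TGF-b, and Cd8b1 55.0 to 86.2 and 38.4 to 92.9. Under the floor on all 6 arrays were 5 of 6 B cell, 3 of 3 NK cell, 4 of 8 myeloid, 0 of 2 CD8, 2 of 5 erythroid and 2 of 4 platelet markers. The myeloid marker Csf1r read 54.1 to 71.3 with and 61.9 to 122 without TGF-b. The part of the markers in the results was not tested. On the Smad2KO_Smad3het arrays these sums were higher, at 2880 with and 3306 without TGF-b for myeloid and 1179 and 649 for B cell markers. CD4 T cell markers summed to 18223 with and 17303 without TGF-b there, lower than on the other 6. Scaling multiplied these arrays by 2.61 with and 2.33 without TGF-b, against 0.853 to 1.26 for the other 6. In bulk RNA, fewer cells of a type and less RNA per cell cannot be told apart.

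**Figure D1:**
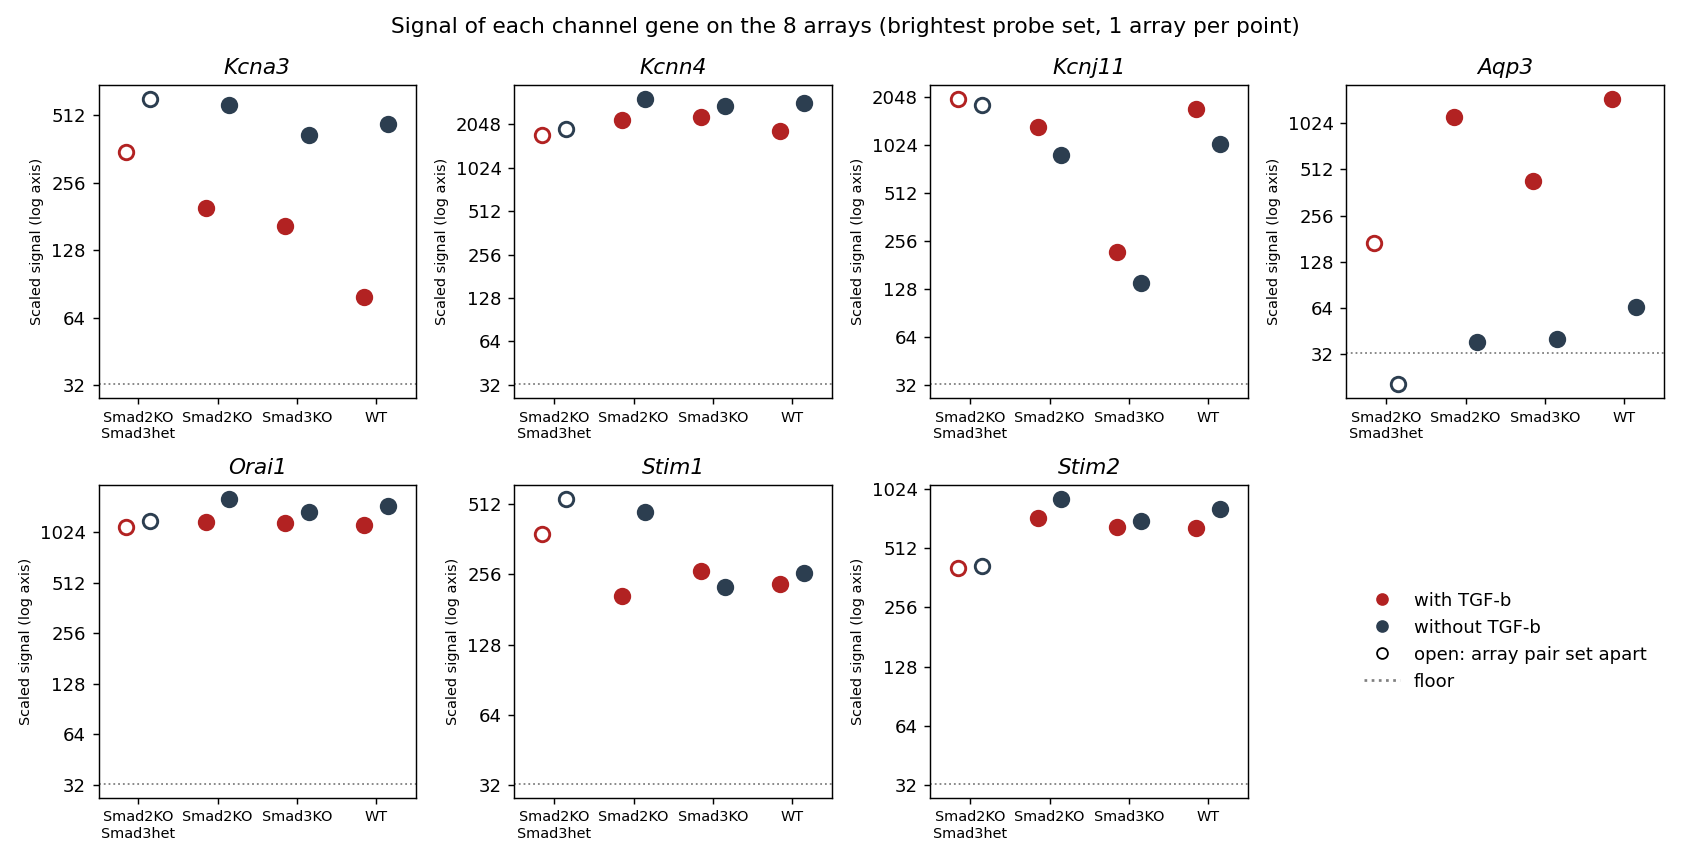
Scaled signal (log axis) of the brightest probe set of each gene on each array, with TGF-b (red) left of without TGF-b (dark), 1 array per point, and the floor of 32.5 as a dotted line. Aqp3 with TGF-b lies far above Aqp3 without it, Kcna3 shows the reverse, and Kcnj11 is low on both Smad3KO arrays (220 and 140); open points are the Smad2KO_Smad3het arrays.

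Aqp3 had the highest TGF-b ratio of the 7 genes in Smad2KO, Smad3KO and WT cells. Its signal was 1126 with and 38.6 without TGF-b in Smad2KO cells. In Smad3KO cells it was 429 with and 40.0 without, and in WT cells 1469 with and 64.8 without. All signals with TGF-b lay above all signals without it, and Smad3KO had the lowest of those with TGF-b. The fold was 29.2 in Smad2KO, 10.7 in Smad3KO and 22.7 in WT. Among bright genes, 4 of 9061 in Smad2KO, 6 of 8939 in Smad3KO and 9 of 9214 in WT had a ratio this high, Aqp3 included. The gene passed the filter through its TGF-b arrays alone, as every signal without TGF-b was under 65.0, so it had to differ. With the floor at the 75th percentile of signals the log2 ratios were 2.35 in Smad2KO, 0.96 in Smad3KO and 2.73 in WT, in place of 4.87, 3.42 and 4.50.

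Further Aqp3 probe sets gave the same order of genotypes with TGF-b. The next read 784 with and 12.3 without TGF-b in Smad2KO, 169 and 22.3 in Smad3KO, against 900.2 and 12.4 in WT. A further one read 620 and 6.22 in Smad2KO, 119 and 17.6 in Smad3KO, against 889 and 2.21 in WT. All signals without TGF-b lay under the floor for both, so the folds are bounds: at least 24.1 and 19.1 in Smad2KO, at least 5.20 and 3.64 in Smad3KO, and at least 27.7 and 27.3 in WT. With TGF-b, Smad3KO signals were 3.42-fold, 5.33-fold and 7.50-fold lower than WT on the 3 probe sets, and Smad2KO signals 1.30-fold, 1.15-fold and 1.43-fold lower. The low Smad3KO signal with TGF-b was thus read on 3 of 3 bright probe sets. On the Smad2KO_Smad3het arrays the probe sets disagreed, with 168 and 20.5, 39.9 and 41.2, and 64.5 and 77.6 with and without TGF-b.

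Kcna3, for the voltage-gated channel that sets the membrane potential of T cells, had the lowest TGF-b ratio of the 7 genes in Smad3KO, Smad2KO and WT cells. It read 197 with and 572 without TGF-b in Smad2KO, 165 and 418 in Smad3KO, against 79.7 and 468 in WT. The 3 signals with TGF-b lay below the 3 without, and the WT signal with TGF-b was the lowest. The gene was 2.90-fold lower with TGF-b in Smad2KO, 2.54-fold in Smad3KO and 5.87-fold in WT. Among bright genes, 31 of 9061 in Smad2KO, 27 of 8939 in Smad3KO and 8 of 9214 in WT had a ratio this low, Kcna3 included. With TGF-b, its signal was 2.47-fold higher in Smad2KO and 2.07-fold higher in Smad3KO than in WT. Without TGF-b the genotypes lay closer, at 1.22-fold higher in Smad2KO and 1.12-fold lower in Smad3KO than in WT. The Smad2KO_Smad3het arrays read 352 with and 605 without TGF-b. Kcna3 had 1 probe set, so these values have no other reading. With the floor at the 75th percentile its log2 ratios were -1.37 in Smad2KO, -0.92 in Smad3KO and -1.08 in WT, in place of -1.54, -1.34 and -2.55. The fall in WT was then no longer the largest.

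Kcnn4, for the calcium-activated potassium channel, had smaller ratios in the same direction on both of its probe sets. The brighter read 2202 with and 3060 without TGF-b in Smad2KO, 2305 and 2756 in Smad3KO, against 1833 and 2895 in WT. The other read 1243 and 1798 in Smad2KO, 1024 and 1339 in Smad3KO, against 951 and 1645 in WT. On each, signals with TGF-b lay below signals without. Folds on the brighter were 1.39 lower in Smad2KO, 1.20 in Smad3KO and 1.58 in WT, and on the other 1.45, 1.31 and 1.73. Ratios as low as on the brighter were had by 804 of 9061 bright genes in Smad2KO, 1062 of 8939 in Smad3KO and 575 of 9214 in WT. As deposited, without scaling, the WT log2 ratio was -1.13 in place of -0.66. Scaling multiplied the WT arrays by 1.26 with and 0.909 without TGF-b, so it moved every WT ratio above the floor by the same amount. The median over all genes moved by -0.20, but that is for the mean response over Smad2KO, Smad3KO and WT and not for the WT pair. On the Smad2KO_Smad3het arrays the brighter probe set read 1733 and 1905.

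Kcnj11, the pore of the ATP-sensitive potassium channel, differed more between Smad3KO and WT than between cultures with and without TGF-b. It read 220 with and 140 without TGF-b in Smad3KO, 1327 and 886 in Smad2KO, and 1731 and 1038 in WT. Both Smad3KO signals lay below every Smad2KO and WT signal. Against WT, Smad3KO was 7.86-fold lower with TGF-b and 7.41-fold lower without, and Smad2KO 1.30-fold and 1.17-fold lower. Of 8759 genes bright in both comparisons of Smad3KO with WT, Kcnj11 was the 1 gene at least 4-fold lower in both, which is 0.0114%. Its mean difference of -2.93 on the log2 scale was the lowest of 9464 genes tested. The TGF-b ratio itself was similar in size in the 3 genotypes, at log2 ratios of 0.58 in Smad2KO, 0.65 in Smad3KO and 0.74 in WT. Without scaling the WT value was 0.27, and with the floor at the 75th percentile the Smad3KO value was 0.

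The Kcnj11 values rest on 1 probe set, since the other stayed between 3.79 and 26.4 on the 6 arrays. The Smad2KO_Smad3het arrays read 1997 with and 1838 without TGF-b on the bright probe set. The 6 nearest genes tested, 3 on each side in RefSeq order, had log2 differences of Smad3KO minus WT between -0.10 (Sergef, with TGF-b) and 0.83 (Hps5, with TGF-b). None of them was lower by an amount near that of Kcnj11. Abcc8 and Abcc9 encode the regulatory subunits that assemble with this pore, and their probe sets stayed at or under 23.6 and 9.98 on the 6 arrays. On these 6 arrays both partners were thus under the floor where Kcnj11 was bright. On the Smad2KO_Smad3het arrays their brightest probe sets read higher, Abcc9 at 660 with and 598 without TGF-b and Abcc8 at 87.6 and 62.4. Abcc8 and Abcc9, like the partners Kcnab2, Orai3 and Saraf below, were named for their role after values were seen.

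Orai1, the pore of store-operated calcium entry, had lower signals with TGF-b on its brightest probe set. That probe set read 1183 with and 1613 without TGF-b in Smad2KO, 1164 and 1356 in Smad3KO, against 1131 and 1458 in WT. The 3 signals with TGF-b spanned little and lay below the 3 without, at 1.36-fold lower in Smad2KO, 1.17-fold in Smad3KO and 1.29-fold in WT. Ratios as low were had by 886 of 9061 bright genes in Smad2KO, 1353 of 8939 in Smad3KO and 1455 of 9214 in WT. The second probe set did not show the same pattern, with 253 and 235 in Smad2KO, 252 and 318 in Smad3KO, against 215 and 225 in WT. Its log2 ratios were 0.11, -0.33 and -0.06, so the sign in Smad2KO depends on the probe set. Without scaling, the log2 ratios of the brightest probe set were -0.69 in Smad2KO, -0.09 in Smad3KO and -0.84 in WT, in place of -0.45, -0.22 and -0.37. The Smad2KO_Smad3het arrays read 1101 and 1185 on it.

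Stim1, the calcium sensor of the store membrane, varied without a common direction. Its brightest probe set read 207 with and 472 without TGF-b in Smad2KO, 265 and 226 in Smad3KO, against 232 and 258 in WT. The signal of Smad2KO without TGF-b stood above the other 5, and signals with and without TGF-b overlapped. The gene was 2.28-fold lower with TGF-b in Smad2KO, 1.17-fold higher in Smad3KO and 1.11-fold lower in WT. The other probe set read 60.4 and 85.0 in Smad2KO, 99.3 and 77.3 in Smad3KO, against 80.6 and 90.3 in WT, with the same signs. On it, the Smad2KO signal without TGF-b was 1.06-fold lower than WT, whereas on the brightest it was 1.83-fold higher. The Smad2KO_Smad3het arrays read 381 and 538 on the brightest.

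Stim2, the second store sensor, which responds to smaller losses of store calcium, read 728 with and 913 without TGF-b in Smad2KO. It read 657 and 705 in Smad3KO, against 651 and 807 in WT. Each genotype was lower with TGF-b, by 1.25-fold in Smad2KO, 1.07-fold in Smad3KO and 1.24-fold in WT, and the ranges with and without TGF-b overlapped. Ratios as low were had by 1458 of 9061 bright genes in Smad2KO, 2771 of 8939 in Smad3KO and 1794 of 9214 in WT. Without scaling the Smad3KO log2 ratio was 0.02 in place of -0.10, so its sign depends on the scaling. The Smad2KO_Smad3het arrays read 405 and 416.

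**Figure D2:**
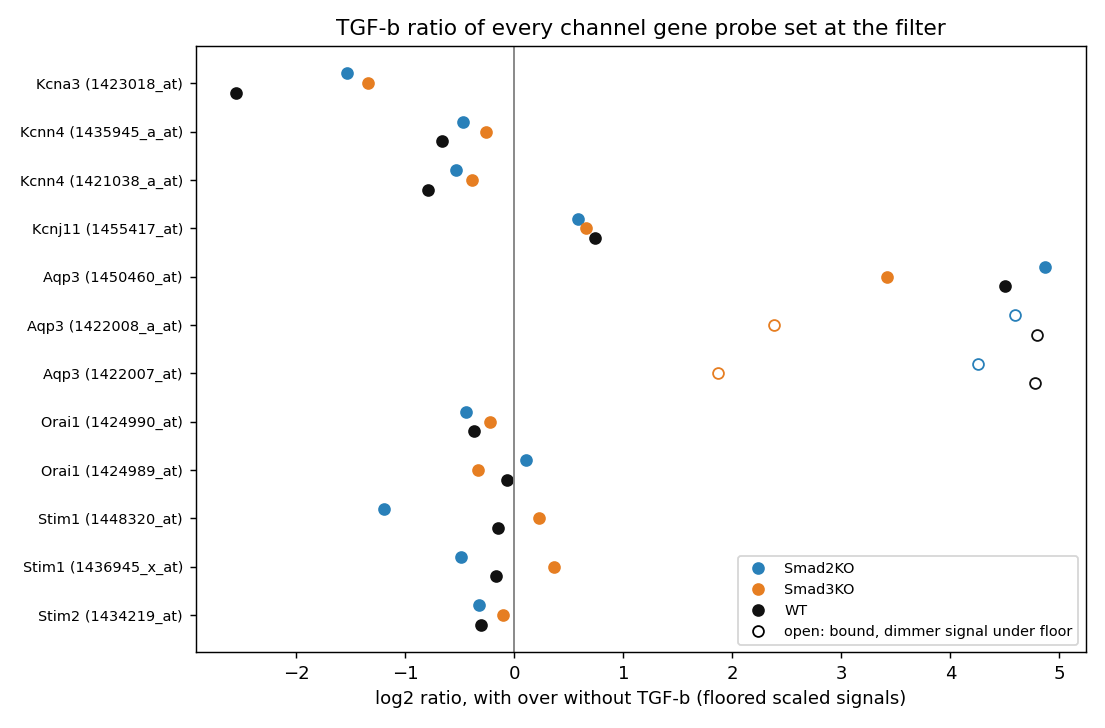
Log2 ratio of floored signals with over without TGF-b (horizontal axis) for the 12 probe sets that reached the filter, 1 point per genotype, open where the dimmer signal lay under the floor so that the ratio is a bound. The 3 Aqp3 probe sets lie at 1.87 or above in Smad2KO, Smad3KO and WT, Kcna3 lies at -1.34 or below in them, and the 2 Orai1 probe sets differ in sign in Smad2KO.

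Across Smad2KO, Smad3KO and WT cells, the mean log2 ratio was 4.26 ± 0.75 for Aqp3, 0.66 ± 0.08 for Kcnj11, -0.25 ± 0.12 for Stim2, -0.35 ± 0.12 for Orai1, -0.37 ± 0.73 for Stim1, -0.46 ± 0.20 for Kcnn4 and -1.81 ± 0.65 for Kcna3 (SD over n = 3 genotypes, which includes any differences between them). Signals with TGF-b lay entirely above those without for 1 gene, Aqp3, and entirely below for Kcna3, Kcnn4 and Orai1. Over all 9464 genes tested the same held for 13.2% and 14.2%. In the fit of the mean TGF-b response by limma, which tests all genes at an adjusted p under 0.05, 2 of the 7 genes were called higher (Aqp3 and Kcnj11) and 3 lower (Kcna3, Kcnn4 and Orai1). Over all genes 7.15% were called higher and 5.64% lower. At a fold of 2 in single pairs, Aqp3 was the 1 gene of the 7 past the mark upward in Smad2KO, Smad3KO and WT, where 2.95%, 1.9% and 4.56% of bright genes were. Downward Kcna3 was past it in all 3, and Stim1 in Smad2KO, where 1.75% in Smad2KO, 0.839% in Smad3KO and 2.91% in WT were. Nothing is read from these counts, since the genes were picked with their ratios known.

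Smad2KO and Smad3KO cells are set against the same WT arrays, so their differences from WT share those signals. In the limma fit of levels with TGF-b as a block, 0 of the 7 genes were called in Smad2KO against WT, where 1.01% of all genes were called. In Smad3KO against WT, 1 gene, Kcnj11, was called lower, where 0.465% of all genes were called and 0.243% called lower. Nothing is read from these calls either, since the genes were picked with their levels by genotype known. The mean difference of Aqp3 in Smad3KO minus WT, -1.24 on the log2 scale, stood among the 32 lowest of 9464 genes. All its signals without TGF-b were under the filter.

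**Figure D3:**
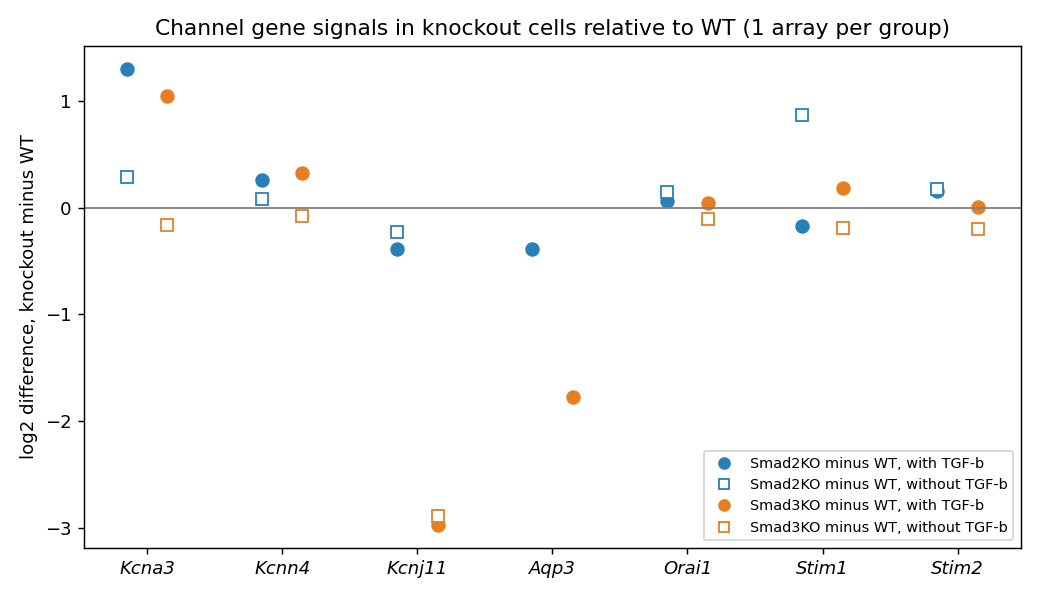
Log2 difference of signal, knockout minus WT (vertical axis), for each gene with TGF-b (filled circles) and without (open squares), 1 array per group. Kcnj11 in Smad3KO is near -3 under both conditions, while Kcna3 is above WT with TGF-b in both knockouts; Aqp3 without TGF-b is not drawn because both signals were under the filter.

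The genes whose signals ran most alike over the 6 arrays were named by Pearson's r of log2 signals, a measure that ignores the size of the change. Over 6 arrays high coefficients are common, and the arrays share the TGF-b contrast. For Aqp3 they were the amino acid transporter gene Slc7a6 (r = 0.998), Lrig1 (0.997) and Rbpj (0.996), the transcription factor of Notch signalling, and 249 of 9457 genes reached 0.95. For Kcna3 they were Ifih1 (0.997), a sensor of viral RNA, Gm8369 (0.996) and Bud23 (0.996), and 183 genes reached 0.95. For Kcnj11 they were the IL-4 receptor gene Il4ra (0.993), Tacc1 (0.984) and Efhd2 (0.977), and 24 genes reached 0.95. For Stim1 they were Gpr132 (0.987), Slc9a8 (0.984) and Tnfrsf1a (0.981), and 13 genes reached 0.95. Among the 7 genes themselves, Kcna3 and Kcnn4 ran most alike at 0.988, and Aqp3 ran opposite to Kcnn4 at -0.949.

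Other genes of ion transport, calcium signalling and calcineurin were read from lists chosen for function, 214 genes in all, of which 186 were named on the array and 85 tested. In the mean TGF-b response 17 rose and 7 fell, 28.2% of those tested, against 12.8% of all 9464 genes (limma, genotype as a block, adjusted p under 0.05). The lists were chosen with earlier results of these data known, so the higher share supports nothing. The median log2 response of the 85 genes was 0.06, against -0.02 over all genes. Of the 24 calls, 6 were kept without scaling, 7 without limma's trend and robust settings, 9 without the filter, 9 without the WT pair and 10 without the block. With all 8 arrays limma called 0 of 139 tested, with 21 at an unadjusted p under 0.05. Of the 24, 1 gene, Kcna2, passed the filter through arrays of 1 condition alone. None of the 24 called genes had the opposite sign in any of the 13 alternatives in which it was tested. Some were not tested in each, as with the floor at the 75th percentile only 46 list genes were.

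Among potassium channel genes 9 of 68 were tested, and 2 rose and 2 fell, with a median log2 response of 0.01. Kcnk6, a leak potassium channel, read 152 with and 50.9 without TGF-b in Smad2KO, 139 and 44.0 in Smad3KO, against 241 and 73.6 in WT. Its log2 response was a rise of 1.65 (SE 0.191, limma adjusted p = 0.000184), higher in 3 of 3 genotypes and by nearly the same amount in each. Kcnk5, another leak channel, rose by 0.86 (SE 0.219, limma adjusted p = 0.0246). Kcna2, a relative of Kcna3, read 89.5 without TGF-b in Smad2KO, 46.4 in Smad3KO and 76.0 in WT, and lay under the floor with TGF-b in all 3. It passed the filter through arrays without TGF-b alone, so it had to differ, and its place among the genes that fell supports nothing. Kcnq5 fell by 0.47 (SE 0.140, limma adjusted p = 0.04996), at the threshold itself. Kcnab2, a subunit that binds channels of the Kcna3 type, read 1111 and 1242 in Smad2KO, 786 and 650 in Smad3KO, against 942 and 1107 in WT and did not pass.

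Among 56 genes of calcium entry, stores and extrusion, 19 were tested, 3 rose and 1 fell, with a median of 0.09. Piezo1, a mechanically gated cation channel, rose by 0.59 (SE 0.0964, limma adjusted p = 0.00203). Itpr3, a calcium release channel of the store, rose by 0.44 (adjusted p = 0.0321), and Orai2, a homologue of Orai1, by 0.70 (adjusted p = 0.0346). Orai2 read 120 with and 75.1 without TGF-b in Smad2KO, 152 and 76.1 in Smad3KO, against 135 and 100.1 in WT. Its direction was thus opposite to that of the bright Orai1 probe set, and its call was kept in 2 of 13 alternatives. Mcu, the pore of the mitochondrial calcium uniporter, fell by 0.77 (SE 0.136, limma adjusted p = 0.00512), with log2 ratios of -0.98 in Smad2KO, -0.33 in Smad3KO and -0.99 in WT. Orai3 was at -0.17 and Saraf, an inhibitor of store-operated entry, at 0.51, and neither passed (limma adjusted p = 0.538 and 0.102). Saraf read 2118 and 1267 in Smad2KO and 1803 and 1036 in WT, but 1744 and 1756 in Smad3KO. Whether these responses differ between genotypes was not tested.

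Of 34 calcium, calcineurin and NFAT genes 26 were tested, and 7 rose and 4 fell, with a median of 0.04. Rcan3, a calcineurin regulator, read 582 with and 215 without TGF-b in Smad2KO, 425 and 185 in Smad3KO, against 902 and 304 in WT. It rose by 1.402 (SE 0.112, limma adjusted p = 1.39e-05) and kept its call in 12 of 13 alternatives. Nfatc2, a calcium-driven transcription factor, rose by 0.84 (SE 0.113, limma adjusted p = 0.000525), and Dgka, a kinase that removes diacylglycerol, by 0.47 (adjusted p = 0.00159). Camk2d, a calmodulin-dependent kinase, fell by 0.83 (SE 0.124, limma adjusted p = 0.00112). Lcp2, an adaptor of the T cell receptor, fell by 0.32 (adjusted p = 0.0118) and the receptor kinase gene Zap70 by 0.27 (adjusted p = 0.0356). Rcan3 was also the 1 companion gene called in Smad3KO against WT, lower by 0.90 (SE 0.137, limma adjusted p = 0.0182). That call was kept in 3 of 10 alternatives, over which limma's adjusted p ran between 0.00143 and 1.

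Of 39 genes of chloride, sodium, magnesium and volume regulation, 27 were tested, 5 rose and 0 fell, with a median of 0.05. Lrrc8c, a subunit of the volume-regulated anion channel, read 890 with and 442 without TGF-b in Smad2KO, 864 and 488 in Smad3KO, against 1123 and 433 in WT. It rose by 1.07 (SE 0.110, limma adjusted p = 9.80e-05). Atp1b1, a subunit of the sodium pump, rose by 1.30 (SE 0.190, limma adjusted p = 0.0122), and the scaffold gene Slc9a3r1 by 0.41 (SE 0.0742, limma adjusted p = 0.00354). Slc12a2, a sodium, potassium and chloride cotransporter, was the 1 companion gene called in Smad2KO against WT, higher by 0.57 (SE 0.109, limma adjusted p = 0.0288). It read 728 with and 783 without TGF-b in Smad2KO, 671 and 706 in Smad3KO, against 510 and 508 in WT. In Smad3KO against WT it was also higher, by 0.43 (SE 0.109, limma adjusted p = 0.127), and was not called. The Smad2KO call too was kept in 3 of 10 alternatives, with limma's adjusted p between 0.0103 and 0.524. Among aquaporin and glycerol genes 4 of 17 were tested and 0 were called by limma, with 0 at an unadjusted p under 0.05, and the 4 were Gpd2, Gpd1l, Gk5 and Gpam, genes of glycerol handling.

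**Figure D4:**
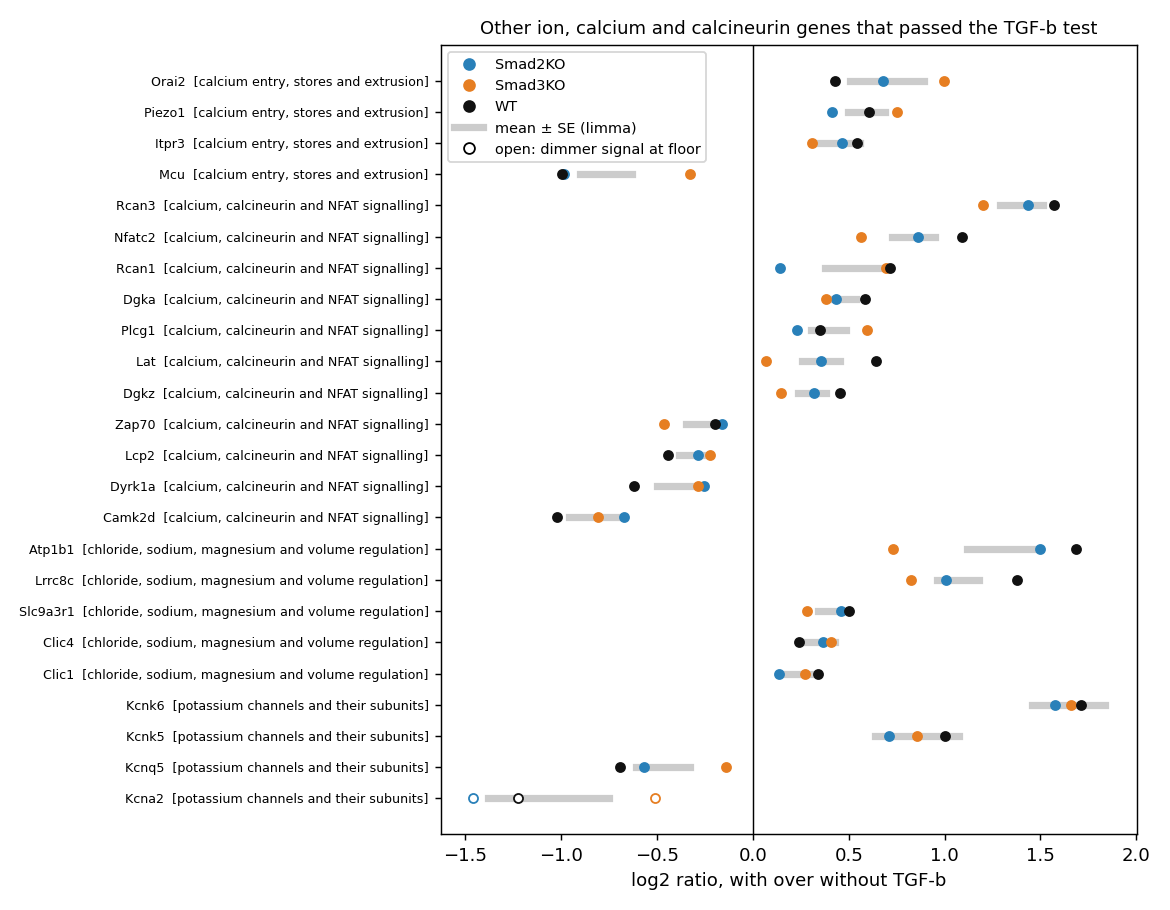
Log2 ratio with over without TGF-b (horizontal axis) in each genotype for the 24 called genes of the function lists, with the limma mean ± SE as a grey bar (n = 3 genotypes); open points have the dimmer signal at the floor. Each gene lies on 1 side of 0 in all 3 genotypes, with Kcnk6 and Rcan3 highest by mean and Kcna2, whose points are bounds, lowest.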

How the data were processed

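Total RNA from 8 cultures was hybridised to Affymetrix arrays, 1 per culture, per the labels' protocols. The authors deposited linear probe set intensities, with GCOS 1.4 named in the submitters' processing notes and no scaling target given. Each array was scaled here to the same mean after trimming 2% at each end, signals were floored at the median of the scaled signals of the 6 WT, Smad2KO and Smad3KO arrays (32.5), and log2 was taken. Probe sets with a highest signal under 65.0 on these 6 arrays were left out, and each of 9464 genes was read from its brightest probe set. limma 3.58.1 in R 4.3.3 (trend and robust settings, Benjamini-Hochberg, threshold 0.05) gave the mean TGF-b response with genotype as a block, with 2 residual degrees of freedom, and knockout levels against WT with TGF-b as a block. The fit was checked on simulated data. Its p-values reflect only how these cultures, 1 per genotype and condition, vary, which may be technical. The residual spread also holds any differences between genotypes in the TGF-b response, which cannot be told apart from noise here. The Smad2KO_Smad3het arrays were left out of the tests, as their signals stood apart. Probe sets were named through the platform annotation, and those with several symbols were not used.

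The 7 genes and the function and marker lists were chosen with earlier results of these data known. Named besides the 7 genes, Smad2 and Smad3 were, per list, up to 3 genes that rose and 3 that fell with the smallest p in the TGF-b response, and the 3 genes most alike to each of the 7 whose log2 signal spanned at least 1. Alternatives were no scaling, median centring, quantile normalization, other floors, no filter, the mean of probe sets, all 8 arrays, no trend and robust settings, no block, and leaving out each genotype's pair. Those from no scaling to all 8 arrays were applied to the Smad3KO differences of Kcnj11, and of Aqp3 with TGF-b. All but leaving out pairs were applied to the genotype calls of Slc12a2 and Rcan3. Both were done after these values were seen.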

Additional observations from a re-analysis of the deposited data

Results flagged for a closer look

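The TGF-b ratio of Stim1 pointed in opposite directions in 2 genotypes, at 0.23 on the log2 scale in Smad3KO and -0.15 in WT. Each value comes from 1 pair of arrays, and the difference was not tested. The other Stim1 probe set gave 0.36 in Smad3KO and -0.16 in WT.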

How the results depend on the processing

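Of 192 alternative values of 24 ratios and differences of the 7 genes, 170 moved by less than a set spread and 22 by more. Many of the 170 had no room to move, so this count is no measure of stability. Dropping the filter or lowering the floor to the 25th percentile changed none of the values. Adding the Smad2KO_Smad3het arrays changed only the Aqp3 ratios in Smad2KO and Smad3KO. The mean of probe sets could not change Kcna3, Kcnj11 or Stim2, which had no further bright probe set. That spread was the SD of the gene's TGF-b ratio over the 3 genotypes, used for the Smad3KO differences too. A change of sign was counted as a reversal only for main values of 2-fold or more, and there were 0. The sign of Stim2 in Smad3KO, a smaller ratio, turned without scaling (0.02). With the floor at the 75th percentile, the WT ratio of Kcna3 was -1.08, the Smad3KO ratio of Aqp3 0.96 and the Smad3KO ratio of Kcnj11 0, since floored signals have no order. Kcnj11 in Smad3KO minus WT stayed between -3.004 and -2.62 with TGF-b and between -3.14 and -2.23 without.

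The counts of limma calls were 1211 for TGF-b over all genes, 24 for TGF-b over the function lists, 96 for Smad2KO and 44 for Smad3KO, and are given in that order below. They were 457, 6, 41 and 21 without scaling, 735, 14, 49 and 11 with the floor at the 75th percentile, and 459, 9, 13 and 4 with no filter. They were 19, 0, 2 and 1 with all 8 arrays, 392, 7, 4 and 3 without trend and robust settings, and 600, 10, 10 and 0 with no block. At an unadjusted p under 0.05 limma had 21 list genes with all 8 arrays and 367 genes in Smad3KO with no block. With the floor at the 25th percentile Smad2KO had 151 and Smad3KO 126, and with the mean of probe sets Smad3KO had 22. Leaving out 1 pair gave 426 (without WT) to 1992 (without Smad3KO) TGF-b calls over all genes and 9 to 29 over the lists. Centring on the median split the TGF-b calls into 603 higher and 757 lower, against 677 and 534, and without scaling into 204 and 253. The genotype block pairs the arrays with and without TGF-b of each genotype, and the labels give no replicate numbers. Signals under the floor limit Aqp3 without TGF-b to a bound on 2 probe sets.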
